A study of Oryza sativa Japonica Group with 12 samples.

Results

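‘CH9’ was compared with ‘CH7’, 2 of the 3 parental rice lines of the study, on whole plants at tillering. The members were the 4 arrays labelled CH9-1, CH9-2, CH7-1 and CH7-2, of 12 arrays in all, and the 24080 of 54922 probe sets for which the platform annotation listed a single gene. These probe sets stood for 23837 genes, of which 2745 had a name beyond a clone or locus code. ‘CH9’ is the white-pericarp waxy variety Shinseonchalbyeo and ‘CH7’ the white-pericarp aromatic waxy variety Aranghyangchalbyeo. Both are temperate *japonica* lines of normal growth, and the study describes each as the carrier of a different hybrid weakness gene, so that their F1 plants grow poorly. Plants of both lines were raised untreated in a greenhouse from seed germinated in water, and each RNA came from an independent plant, of which the methods state 3 per line and 2 arrays per line were used here. The remaining arrays, 2 per line, were of the third parent ‘CH8’ and of the F1 hybrids ‘CH7/9’, ‘CH8/9’ and ‘CH7/8’. The question was which genes differ in array signal between the parents before any cross is made. The study reports many polymorphic sites in both lines against the Nipponbare reference. Whether sequence differences under the probes changed the signal of a line was not tested.

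Values are fluorescence intensities on a linear scale, as deposited, and differences are ‘CH9’ minus ‘CH7’ on the log2 scale with their standard error (SE). A gene was called when limma gave a Benjamini-Hochberg adjusted p of at most 0.05 over all probe sets and the lines differed at least 2-fold. In whole plants, fewer cells of a type and less RNA per cell cannot be told apart. Replicate arrays correlated at r = 0.984 in ‘CH9’ and 0.983 in ‘CH7’ over all probe sets, and arrays of different lines at 0.958 to 0.971. Array medians lay between 11 and 11.8, and the first quartile between 4.76 and 5.02, so values near 5 were at the dim end of an array. Replicates differed at least 2-fold at 1554 probe sets in ‘CH9’ and 1314 in ‘CH7’, against 3194 probe sets at which the line means did.

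Between ‘CH9’ and ‘CH7’ 110 genes differed, 66 higher and 44 lower in ‘CH9’. Of all 23837 genes, 0.277% were called higher, 0.185% lower and 0.461% in either direction. The median difference of all genes was -0.04. Among the called genes 15 had a name. The 11 higher in ‘CH9’ held the cellulose synthase genes *CESA8* and *CESA1*, a pair of further wall genes and a kinesin. They also held the calcium signalling kinases *CIPK27* and *CIPK33*, and genes of phosphate transport, strigolactone synthesis and cell cycle arrest. The 4 lower in ‘CH9’ were *DMC1*, *GATB*, *HAP2A* and *CpSecY*. The other 95 called genes were known by a locus code alone, and they held the largest differences, from 6.39 for LOC4350688 to -5.61 for LOC4346832. The median called difference was 2.11 among genes higher and -1.94 among genes lower in ‘CH9’. At least 8-fold differences were found in 14 genes higher and 13 lower. At an unadjusted p under 0.05, 1267 genes were higher and 1754 lower, or 5.32% and 7.36% of all genes.

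**Figure D1:**
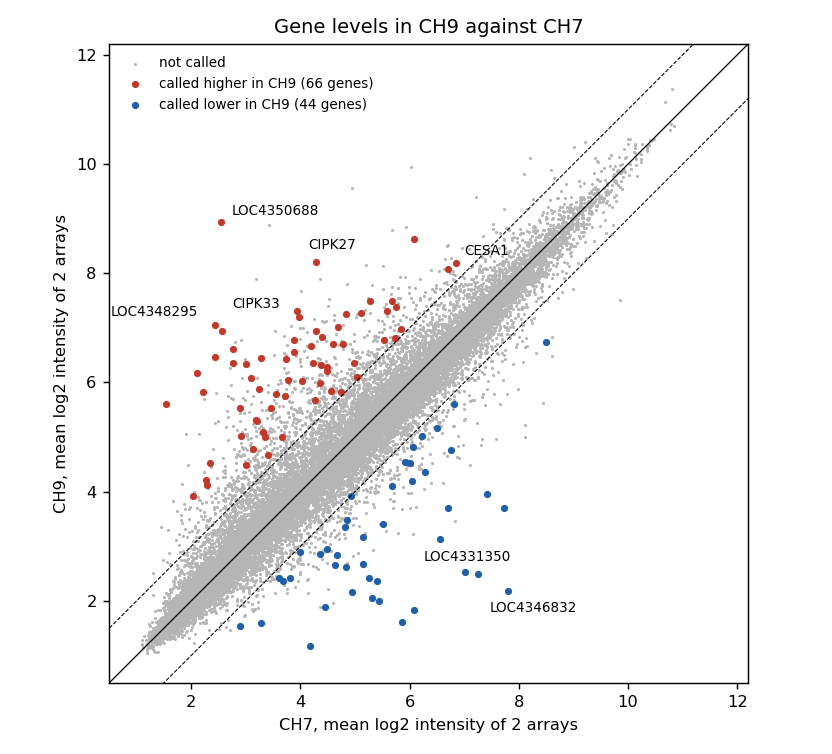
Mean log2 intensity of the 2 ‘CH9’ arrays (vertical axis) against that of the 2 ‘CH7’ arrays (horizontal axis) for each of 23837 genes, with the line of equality and the 2-fold limits dashed. The 66 genes called higher and the 44 called lower lie far from the line, and grey points beyond the dashed lines are genes that differed at least 2-fold without a call.

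The standard errors rest on 2 arrays per line and on a spread pooled over the 6 lines, and without the ‘CH7/8’ arrays, whose replicates lay furthest apart, 233 genes were called. When 1 of the 4 arrays was left out, 31 genes were called without ‘CH9’ replicate 1, 35 without ‘CH9’ replicate 2, 34 without ‘CH7’ replicate 1 and 42 without ‘CH7’ replicate 2. Of the 110 genes, 25 were called in each of these fits, and *CIPK27* and *CIPK33* were the named genes among them. All 110 genes kept their direction in each fit.

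Plant cells lay down cellulose through plasma membrane complexes of cellulose synthase (CESA) proteins. In rice, CESA1, CESA3 and CESA8 serve the primary wall of growing cells, and CESA4, CESA7 and CESA9 the secondary wall that stiffens stems and vessels. Cellulose synthase-like (CSL) proteins make the other backbones of the wall: CSLA mannan, CSLC xyloglucan and CSLF6 the mixed-linkage glucan typical of grasses. COBRA-like proteins such as BC1, known from the brittle culm mutants of rice, are needed for cellulose assembly.

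The cellulose synthase genes had higher means in ‘CH9’ in 8 of 9 cases, and 2 of them were called. *CESA8* on chromosome 7 gave intensities of 170 and 149 in ‘CH9’, against 43.8 and 52.5 in ‘CH7’. *CESA1* on chromosome 5 gave 302 and 285 in ‘CH9’, against 110 and 120 in ‘CH7’. Both pairs stood well apart, by 1.73 (SE 0.21, adjusted p = 0.0135 from limma) for *CESA8* and 1.35 (SE 0.19, adjusted p = 0.0295 from limma) for *CESA1*. Without 1 array the difference stayed between 1.60 and 1.86 for *CESA8* and between 1.29 and 1.41 for *CESA1*, and neither was called (adjusted p of 0.0639 to 0.148 for *CESA8* and 0.110 to 0.239 for *CESA1* from limma).

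Of the 9 *CESA* genes measured, 8 had both ‘CH9’ arrays above both ‘CH7’ arrays and an unadjusted p under 0.05, and the median difference was 1.35. Over all genes both ‘CH9’ arrays were above both ‘CH7’ arrays in 23.3%, and below both in 30.6%. The secondary-wall gene *CESA4* had the largest *CESA* difference, with 110 and 171 in ‘CH9’, against 27 and 17.3 in ‘CH7’. Its replicates were further apart than those of *CESA8*, and the difference of 2.67 was not called (SE 0.48, adjusted p = 0.071 from limma). The ‘CH8/9’ arrays at 139 and 63.4 and the ‘CH7/8’ arrays at 393 and 163 added to its pooled spread. *CESA6* differed by 1.97, *CESA9* by 1.86, *CESA5* by 1.19, *CESA7* by 1.00 and *CESA3* by 0.87, none of them called. *CESA2* was the exception, at -0.05.

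The other wall synthases were less uniform. *CSLF6* gave 137 and 128 in ‘CH9’, against 31.2 and 24.1 in ‘CH7’, a difference of 2.27 that missed the call (adjusted p = 0.0762 from limma). *CSLA1*, of mannan synthesis, gave 264 and 214 in ‘CH9’, against 30.3 and 14 in ‘CH7’, and its 3.53 had an SE of 0.98. The brittle culm gene *BC1* (LOC4333114) differed by 2.29, whereas the 3 *CSLD* genes lay between -0.11 and 0.06 and *CSLA4* at -0.50. All 5 *CSLC* genes had a higher mean in ‘CH9’, by 0.08 to 1.45, and 2 reached an unadjusted p under 0.05. Of the 6 *CSLF* genes 5 had a higher mean, but their median was 0.06 and *CSLF6* alone reached that p.

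Over the whole list of 40 cellulose and mannan synthesis genes, 32 had a higher mean in ‘CH9’, and the median difference was 0.45, beside -0.04 for all genes. Both ‘CH9’ arrays exceeded both ‘CH7’ arrays in 25 genes, or 62.5%, and were below both in 2. An unadjusted p under 0.05 was reached by 14 genes higher in ‘CH9’ (35%) and 0 lower, beside 5.32% and 7.36% of all genes. limma called 2 higher and 0 lower. Without 1 array, 11 to 13 genes of the list were higher at that unadjusted p. The summed intensity of the list was 3065 and 2858 in ‘CH9’, against 1665 and 1646 in ‘CH7’. One of the 40, LOC4347540 (2.54), carries the name *BC1* together with *bHLH081*, so the table does not settle whether it belongs there.

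**Figure D2:**
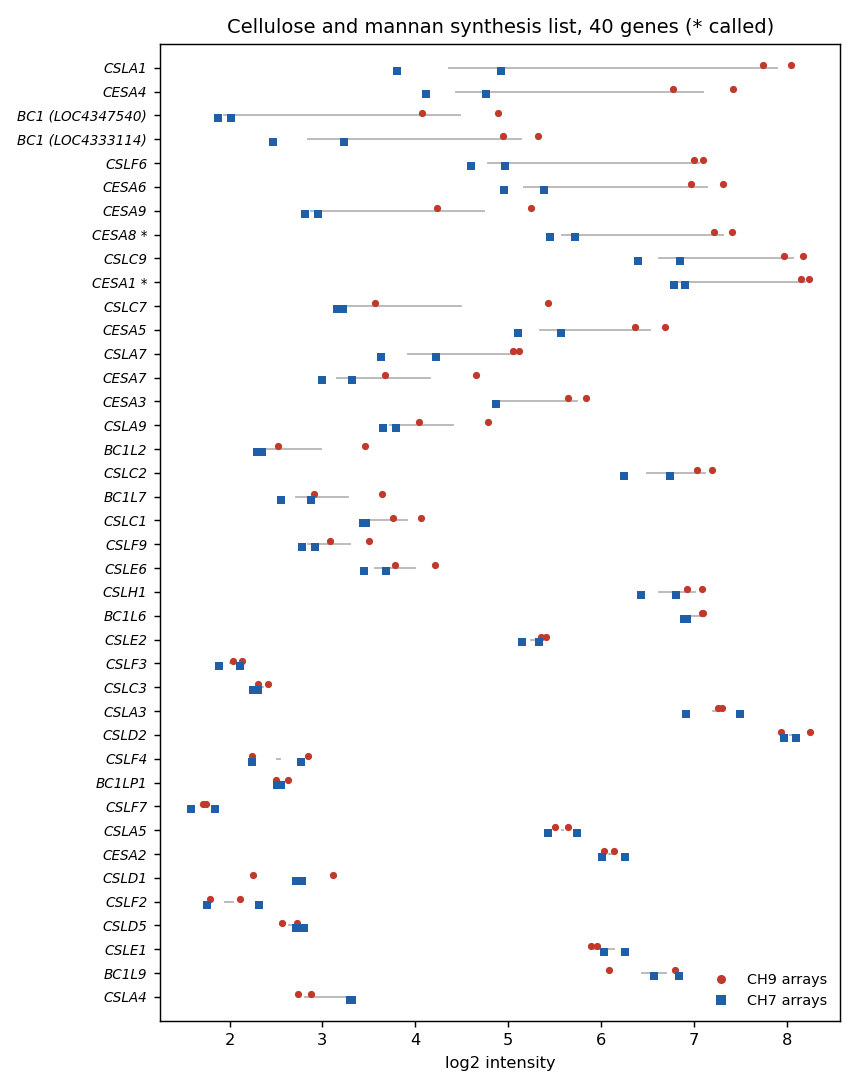
Log2 intensity (horizontal axis) of the 40 genes of cellulose and mannan synthesis on each ‘CH9’ array (circles) and each ‘CH7’ array (squares), in order of their difference, with grey bars joining the line means and asterisks on the 2 called genes. In 8 of the 9 *CESA* genes the circles lie to the right of the squares.

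Among genes for enzymes that loosen or trim the wall, a pair could be called, both higher in ‘CH9’. *GLU2*, a glucanase gene, gave 260 and 280 in ‘CH9’, against 97.6 and 110 in ‘CH7’. Its difference was 1.38 (SE 0.16, adjusted p = 0.0107 from limma). A gene listed as *cellulase* (LOC4347685) gave 51.3 and 51.1 in ‘CH9’, against 19.7 and 18.7 in ‘CH7’, a difference of 1.41 (adjusted p = 0.0149 from limma). Neither gene was called when any 1 of the 4 arrays was left out, at differences of 1.29 to 1.47 for *GLU2* and 1.38 to 1.45 for *cellulase*. The expansin-like *EXLA2* (1.43) and the glucosidases *BGLU28* (1.37) and *BGLU18* (1.48) had adjusted p of 0.0653, 0.0674 and 0.0693. Of the 96 genes listed as expansins and wall hydrolases, 58 had a higher mean in ‘CH9’ and the median was 0.10. 1 gene was called higher and 0 lower. An unadjusted p below 0.05 was found for 14 genes on the higher side (14.6%) and 3 on the lower side (3.12%). Over all genes these shares were 5.32% and 7.36%.

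Kinesins are motor proteins that move along microtubules, which guide both cell division and the track of cellulose synthesis. *KIN14H*, of the kinesin-14 family, gave 24.4 and 20.9 in ‘CH9’, against 7.79 and 8.16 in ‘CH7’. Its difference of 1.5 (SE 0.17, adjusted p = 0.0104 from limma) was still called without ‘CH9’ replicate 2 (adjusted p = 0.0448) and was 1.39 to 1.54 and not called without each of the other 3 arrays. *KIN13B* gave 125 and 156 in ‘CH9’, against 21.9 and 22.5 in ‘CH7’. Its difference of 2.65 had an SE of 0.60 from the pooled spread, to which the ‘CH7/8’ arrays at 76.8 and 410 added, and it was not called. Of 37 kinesin genes 28 had a higher mean in ‘CH9’, the median was 0.24, and the count called was 1 higher and 0 lower. At an unadjusted p under 0.05 there were 6 higher (16.2%) and 1 lower (2.7%), beside 5.32% and 7.36% of all genes.

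Beta-tubulin and actin genes, often used as references, were also brighter in ‘CH9’, without a call. *TUBB4* gave 204 and 189 in ‘CH9’, against 47.4 and 54.2 in ‘CH7’ (1.95, adjusted p = 0.0874 from limma), and *ACT2* gave 113 and 112 in ‘CH9’, against 45.6 and 61.7 in ‘CH7’ (1.08). The summed intensity of the 25 reference genes was 3667 and 3674 in ‘CH9’, against 3354 and 3376 in ‘CH7’. Of these genes 15 had a higher mean in ‘CH9’, and 0 were called. Those with an unadjusted p below 0.05 made up 32% on the higher side (8 genes) and 4% on the lower side (1 gene). The same shares were 5.32% and 7.36% over all genes, and 35% and 0% in the cellulose and mannan list. The part of the reference genes in the wall gene result was not tested. Quantile normalization and median centring of the arrays left all 110 called genes in their direction, *CESA8*, *CESA1*, *GLU2*, *cellulase* and *KIN14H* among them. The arrays had similar medians and first quartiles beforehand, so neither step could show the part of the reference genes.

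Markers of organs gave no call in either direction. Of 21 root markers 9 had a higher mean in ‘CH9’, and their summed intensity was 330 and 285 in ‘CH9’, against 522 and 347 in ‘CH7’. The arrays of the lines do not overlap in this sum. At an unadjusted p under 0.05, 2 root markers were lower (9.52%, beside 7.36% of all genes). The potassium transporter gene *HAK5*, 1 of them, was at 18.3 and 28.8 in ‘CH9’, against 120 and 60.3 in ‘CH7’. Without *HAK5* the sums of the lines overlap. The 16 green leaf markers summed to 1701 and 1812 in ‘CH9’, against 2034 and 1994 in ‘CH7’, with 6 higher means and sums that again do not overlap. The 23 panicle and flower markers summed to 785 and 732 in ‘CH9’, against 653 and 844 in ‘CH7’, with 9 higher means and sums that overlap. The 17 endosperm markers summed to 205 and 199 in ‘CH9’, against 234.5 and 232 in ‘CH7’, with 9 higher means and no overlap. Of these sums *GLB* alone gave 99.4 and 94.2 in ‘CH9’, against 135 and 131 in ‘CH7’. That gap is wider than the gap of the sums, so the lower sum in ‘CH9’ rests on this gene. The part of organ make-up in the differences was not tested.

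Calcium signals reach protein kinases of the CIPK family through the calcineurin B-like sensor proteins that bind them. *CIPK27* on chromosome 9 had the largest difference of any named gene. It gave 335 and 263 in ‘CH9’, against 24 and 15.8 in ‘CH7’. The lines differed 15.2-fold, or by 3.93 (SE 0.26, adjusted p = 0.000321 from limma), and the call held in each of the 16 alternative fits. *CIPK33* on chromosome 11 gave 149 and 168 in ‘CH9’, against 11.6 and 20.2 in ‘CH7’. Its difference was 3.37 (SE 0.31, adjusted p = 0.00232 from limma), and it was called without any 1 of the 4 arrays.

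Those genes stood alone in their list. Of 102 calcium signalling genes, 2 were called higher and 0 lower, and the median was -0.07. Shares of 3.92% on the higher side (4 genes) and 7.84% on the lower side (8 genes) had an unadjusted p below 0.05. Over all genes these shares were 5.32% and 7.36%. The exchanger gene *CAX1b* gave 34.7 and 41.8 in ‘CH9’, against 98.8 and 86.9 in ‘CH7’, a difference of -1.28 that was not called (adjusted p = 0.17 from limma).

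The remaining named genes higher in ‘CH9’ came from separate pathways. *RS2*, named after the maize MYB gene ROUGH SHEATH2, gave 30.1 and 35.2 in ‘CH9’, against 7.98 and 7.17 in ‘CH7’, a difference of 2.10 (adjusted p = 0.0327 from limma). *OsPT11*, a phosphate transporter gene known for its induction in mycorrhizal roots, gave 19.9 and 17.2 in ‘CH9’, against 5.17 and 4.48 in ‘CH7’, so that ‘CH7’ was near the dim end of the array. It differed by 1.95 (SE 0.20, adjusted p = 0.0043 from limma). *CCD8A*, which codes for a carotenoid cleavage dioxygenase of strigolactone synthesis, gave 75 and 85.5 in ‘CH9’, against 20.1 and 21.6 in ‘CH7’, a difference of 1.94 (adjusted p = 0.029 from limma). *KRP5*, a gene for an inhibitor of cyclin-dependent kinases, gave 211 and 155 in ‘CH9’, against 51.8 and 50.2 in ‘CH7’, a difference of 1.83 just inside the threshold (adjusted p = 0.0481 from limma). The array pairs of each gene were well separated. Of these 4 genes, *OsPT11* alone was called without 1 array, namely without ‘CH9’ replicate 2 and without ‘CH7’ replicate 1 (difference of 1.84 to 2.05 over the 4 fits). *RS2* was at 1.99 to 2.22, *CCD8A* at 1.85 to 2.04 and *KRP5* at 1.61 to 2.05 in those fits.

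The lists that hold these genes were mixed, beside 5.32% of all genes higher and 7.36% lower at an unadjusted p under 0.05. Of 65 nutrient ion transporter genes 19 had a higher mean in ‘CH9’, the median was -0.10, and 1 was higher (1.54%) and 7 lower (10.8%) at that p, with *OsPT11* the 1 called. Of 33 strigolactone and tillering genes 20 were higher on average with a median of 0.09, 1 called, 5 higher (15.2%) and 2 lower (6.06%) at an unadjusted p under 0.05. Of 67 genes of cyclins, CDKs and histones 37 were higher on average, the median was 0.02, and 6 were higher (8.96%) and 4 lower (5.97%) at that p, with *KRP5* called.

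Genes lower in ‘CH9’ included *DMC1*, the recombinase gene of meiosis, on chromosome 12. It gave 6.67 and 5.99 in ‘CH9’, against 26 and 23.8 in ‘CH7’, a difference of -1.98 (SE 0.22, adjusted p = 0.0091 from limma). The annotation joins the near-identical copies DMC1A and DMC1B under this gene, so signal from either may be counted. *GATB*, for a subunit of the amidotransferase that charges glutamine tRNA in organelles, gave 18.2 and 16.2 in ‘CH9’, against 46.5 and 57.0 in ‘CH7’, or -1.58 (adjusted p = 0.0181 from limma). *CpSecY*, for a chloroplast protein translocase subunit, gave 29.1 and 36.6 in ‘CH9’, against 76.4 and 74.2 in ‘CH7’, or -1.20 (adjusted p = 0.0412 from limma). *HAP2A* gave 6.72 and 7.74 in ‘CH9’, against 22.5 and 18.5 in ‘CH7’, or -1.5 (adjusted p = 0.0177 from limma). The ‘CH9’ arrays of *DMC1* and *HAP2A* were near the dim end. None of the 4 genes was called when any 1 of the 4 arrays was left out, at -2.05 to -1.90 for *DMC1*, -1.73 to -1.44 for *GATB*, -1.64 to -1.36 for *HAP2A* and -1.37 to -1.04 for *CpSecY*.

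**Figure D3:**
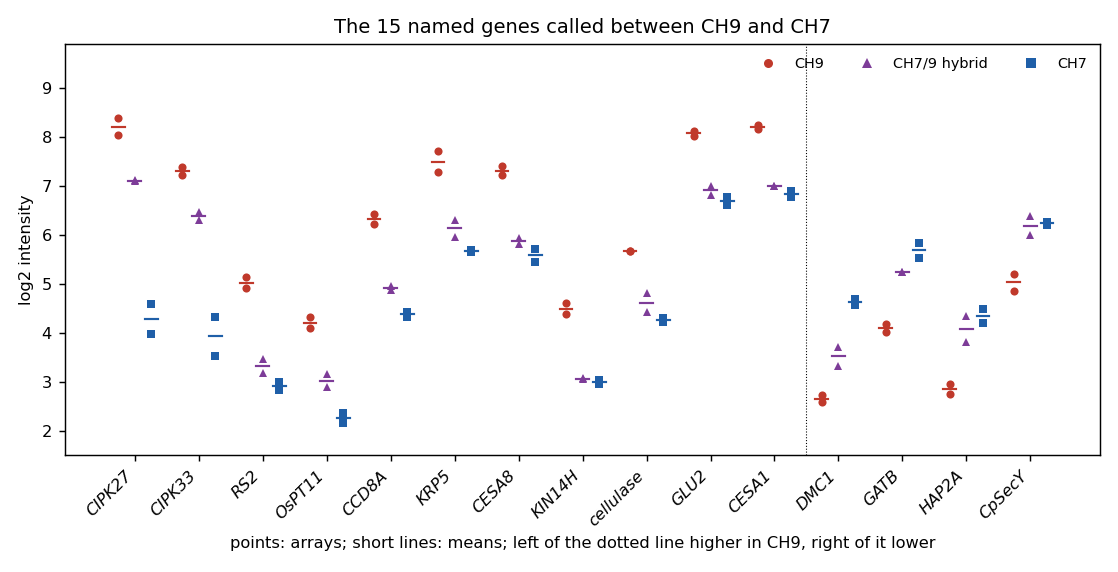
Log2 intensity (vertical axis) of the 15 named genes called between the parents, with points for the 2 arrays of ‘CH9’ (circles), of the F1 hybrid ‘CH7/9’ (triangles) and of ‘CH7’ (squares) and short lines for their means. *CIPK27* and *CIPK33* have the widest gaps, and the hybrid lies near ‘CH7’ for *CESA8*, *KIN14H*, *GLU2* and *CESA1*.

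Genes of the grain traits by which the varieties are described gave no call. Fragrance, the trait in which the lines differ, is known to come from loss of function of *BADH2*, a betaine aldehyde dehydrogenase gene. It gave 102 and 84.4 in ‘CH9’, against 85.7 and 97.9 in aromatic ‘CH7’, a difference of 0.02 (SE 0.22). *GBSS-I*, the granule-bound starch synthase gene behind the waxy grain of both lines, was at 4.83 and 4.86 in ‘CH9’, against 4.06 and 4.37 in ‘CH7’, at the dim end of the arrays. *ANS2*, of the synthesis of anthocyanin pigments, was at 5.54 and 5.99 in ‘CH9’, against 5.84 and 6.44 in ‘CH7’.

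The largest differences were in genes without a name, and many of these were near the dim end in a single parent. LOC4350688 on chromosome 11 gave 522 and 462 in ‘CH9’, against 5.51 and 6.21 in ‘CH7’, a difference of 6.39 (SE 0.16, adjusted p = 1.37e-06 from limma). LOC4348295 on chromosome 10 gave 131 and 133 in ‘CH9’, against 5.56 and 5.33 in ‘CH7’ (4.60). LOC4342178 on chromosome 7, annotated as a transcribed pseudogene, gave 50.3 and 47.2 in ‘CH9’, against 2.92 and 2.86 in ‘CH7’ (4.07). In these genes ‘CH9’ was well above the array median and ‘CH7’ at the dim end, with tight replicates in both. LOC4350644 on chromosome 11 gave 69.7 and 73.9 in ‘CH9’, against 3.89 and 4.78 in ‘CH7’ (4.06). LOC4349561, also on chromosome 11, gave 128 and 117 in ‘CH9’, against 8.86 and 3.9 in ‘CH7’, and its wider SE of 0.55 left it with an adjusted p of 0.015.

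In the other direction, LOC4346832 on chromosome 9 gave 4.77 and 4.36 in ‘CH9’, against 276 and 180 in ‘CH7’ (-5.61, SE 0.50, adjusted p = 0.00203 from limma). Since ‘CH9’ was at the dim end, the size depends on how low values are treated, and a pseudocount of 16 gave -3.54. LOC4331350 on chromosome 3 gave 5.66 and 5.61 in ‘CH9’, against 151 and 154 in ‘CH7’ (-4.76). LOC4350706 on chromosome 11 gave 6.04 and 5.5 in ‘CH9’, against 159 and 106 in ‘CH7’ (-4.49). These genes were bright in ‘CH7’ and dim in ‘CH9’. LOC4327935 on chromosome 1 gave 3.09 and 3 in ‘CH9’, against 55.0 and 61.4 in ‘CH7’ (-4.26), and LOC9271826 on chromosome 11 gave 3.56 and 3.54 in ‘CH9’, against 72.3 and 62.9 in ‘CH7’ (-4.25). Among the 44 genes called lower, 9 had both ‘CH9’ arrays under the first quartile of the array and 27 under its median. Among the 66 called higher, 4 had both ‘CH7’ arrays under the first quartile and 26 under the median. Fold differences of such genes depend on how dim signals were treated upstream. A dim signal in 1 line was not checked for sequence differences under the probes.

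By RefSeq class, 95 of the 110 called genes were protein-coding, or 0.419% of the 22654 protein-coding genes measured. Long non-coding RNA genes held 7 calls, 2 higher and 5 lower, of 534 measured (1.31%). There were 4 calls among 424 pseudogenes (0.943%), all lower in ‘CH9’, 1 among 78 transcribed pseudogenes and 3 among 146 genes of other RNA (2.05%). These counts were not tested.

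The called genes were unevenly spread over the chromosomes. Chromosome 11 held 25 of the 110, 13 higher and 12 lower in ‘CH9’, or 1.82% of its 1377 measured genes. On the other chromosomes the share was between 0.0366%, on chromosome 2 with 1 call among 2729 genes, and 0.759%, on chromosome 9 with 10 among 1318. Most calls of chromosome 11 lay in a stretch of 300 neighbouring measured genes, the 801st to the 1100th in the order of the RefSeq table. It held 22 calls, 11 higher and 11 lower, which was 7.33% of its genes, against 0.374% (88 of 23537) elsewhere. The limits of this stretch were chosen after the calls were seen, so its share is a description. When the measured genes were cut into 482 blocks of 50 neighbours, 404 held no call and 60 held 1. With 1 array left out, 9 to 13 calls lay in the stretch (3% to 4.33%), 9 to 12 of them among the 22, and 21 to 29 lay elsewhere (0.0892% to 0.123%). Of the 25 genes called in each of those fits, 9 were in the stretch.

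**Figure D4:**
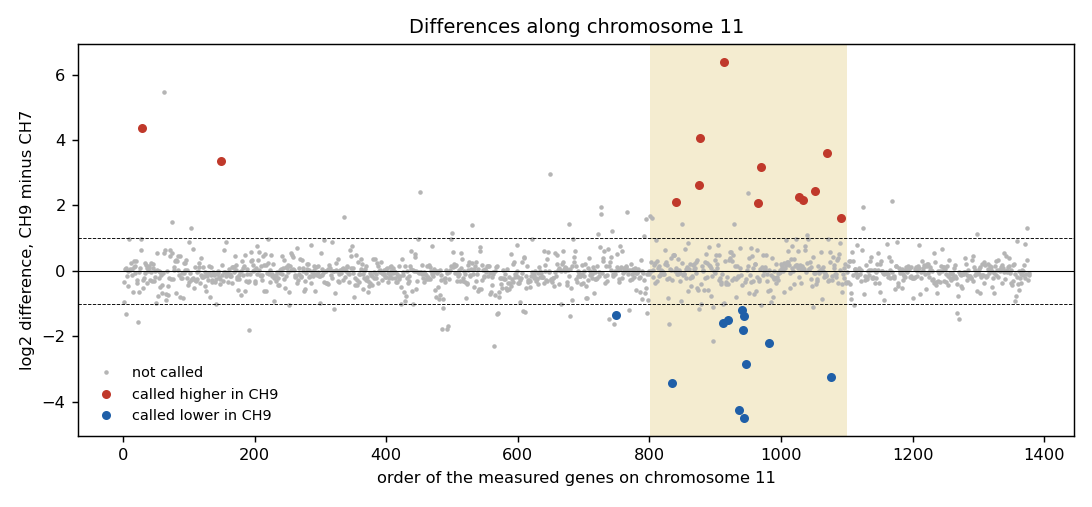
Log2 difference, ‘CH9’ minus ‘CH7’ (vertical axis), of each measured gene on chromosome 11 in its order along the chromosome (horizontal axis), with the stretch from the 801st to the 1100th gene shaded and dashed lines at 2-fold. Of the 25 called genes, 22 lie in the shaded stretch, 11 above and 11 below 0.

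Within the stretch, called genes lay side by side. LOC9268286, LOC4350705, LOC4350706 and LOC4350707 are consecutive measured genes, and all were lower in ‘CH9’, by -1.19, -1.82, -4.49 and -1.37. LOC4350706 was called without any 1 of the 4 arrays, and the other three in none of those fits. LOC4350705 gave 7.57 and 6.84 in ‘CH9’, against 31.1 and 20.6 in ‘CH7’. LOC4350707 gave 24.3 and 22.5 in ‘CH9’, against 51.7 and 71.0 in ‘CH7’. LOC9267751 (-2.84) and LOC9271826 (-4.25) lay within the next few measured genes on either side. *GATB* and LOC4350688 lie in the same stretch, 1 lower and 1 higher in ‘CH9’, and LOC4350643 (2.63) is the neighbour of LOC4350644 (4.06), both higher.

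Chromosome 9 had the only other window of 10 neighbouring measured genes with at least 3 calls in 1 direction. It held LOC4346832 (-5.61), LOC9268272 (-1.45), LOC4346838 (-3.44) and LOC4346840 (-3.46), all lower in ‘CH9’. LOC4346832 and LOC4346838 were called without any 1 of the 4 arrays, LOC9268272 and LOC4346840 in none of those fits. LOC4346838 gave 3.79 and 4.19 in ‘CH9’, against 46.5 and 40.3 in ‘CH7’. LOC4346840 gave 17.1 and 14.1 in ‘CH9’, against 246 and 118 in ‘CH7’. On chromosome 4, LOC4335293 and LOC4335294 were neighbours (-1.33 and -1.21), as were LOC4337100 and LOC4337101 (-1.25 and -2.47). Of 6 adjacent pairs of called genes over all chromosomes, 6 had the same direction. Cross-hybridization between related neighbours was not tested.

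The F1 hybrid ‘CH7/9’ carries both parental genomes, and its values do not enter the difference between the parents, though its replicates entered the spread that all lines shared. Since the genes were chosen for a wide parental gap, a value between the parents is likely by that choice alone, and the positions are given as a description. Both hybrid arrays lay between the parental means in 54 of the 66 genes higher and 41 of the 44 genes lower in ‘CH9’. On a log2 scale on which ‘CH9’ is 1 and ‘CH7’ is 0, the median position was 0.30 for genes higher and 0.45 for genes lower in ‘CH9’. Among genes higher in ‘CH9’, 28 lay under 0.25, close to ‘CH7’, and 23 over 0.5. Among genes lower in ‘CH9’, 9 lay under 0.25 and 18 over 0.5.

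The called wall and kinesin genes lay at the ‘CH7’ end. *KIN14H* gave 8.47 and 8.30 in ‘CH7/9’ (position 0.05), *CESA1* 129 and 128 (0.12), *GLU2* 128 and 113 (0.16), *CESA8* 61.7 and 56.4 (0.17) and *cellulase* 28.0 and 21.4 (0.25). In each of them ‘CH9’ was the bright parent, and the hybrid was near the dim one. Wall genes that were not called spread further. Among the 14 genes of the cellulose list that were higher in ‘CH9’ at an unadjusted p under 0.05, the median position was 0.21, with 8 under 0.25 and 2 over 0.5, and *CESA6* reached 0.59, *CSLF6* 0.49 and *CESA5* and *CESA9* 0.36. *CIPK27* gave 139 and 137 in ‘CH7/9’ (0.72) and *CIPK33* gave 79.5 and 88.8 (0.73), nearer to ‘CH9’. LOC4350688 gave 239 and 238 in ‘CH7/9’ (0.84) and LOC4350847 gave 47.0 and 51.3 (0.94). The 13 genes of chromosome 11 higher in ‘CH9’ had a median position of 0.76, beside 0.25 for the 53 higher genes of the other chromosomes. The 12 lower genes of chromosome 11 were at 0.51 and the 32 others at 0.44.

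Between parents that differ 8-fold or more, the mean of the linear intensities lies close to the bright parent on the log2 scale. For the 27 genes with such a difference, ‘CH7/9’ minus this linear mean had a median of -0.19 on the log2 scale, and 17 genes were within 0.5 of it.

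The hybrids ‘CH8/9’ and ‘CH7/8’ differ in the same pair of parental genomes on a shared ‘CH8’ background, and their 4 arrays are separate from those of ‘CH9’ and ‘CH7’, although all entered the shared spread, so that genes called for a small spread have a small SE here too. In ‘CH8/9’ minus ‘CH7/8’, 50 of the 66 genes higher in ‘CH9’ were higher, 27 of them at an unadjusted p under 0.05 and 1 lower at that p. Of the 44 genes lower in ‘CH9’, 40 were lower, 18 at an unadjusted p under 0.05, and 0 were higher at that p. Over all genes, 2.39% were higher and 1.58% lower in ‘CH8/9’ at that p, and the medians of the difference were 0.47 for the 66 genes, -0.54 for the 44 and 0.02 for all genes. With the parents fitted on the 6 parental arrays and the hybrids on the 6 hybrid arrays, a pair of fits that share no array, 56 of 68 genes called higher (0.285% of all) were higher in ‘CH8/9’, 20 at an unadjusted p under 0.05, and 46 of 52 called lower (0.218%) were lower, 13 at that p. Over all genes those fits had 1.63% higher and 1.17% lower at that p. limma called 8 genes between the hybrids, 0.0336% of all, and all 8 were among the 110 with the same direction, 6 higher and 2 lower.

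The 8 genes differed at least 8-fold between the parents, most of them with 1 parent at the dim end. LOC4350688 differed by 5.39 between the hybrids (adjusted p = 6.26e-06 from limma), LOC4342178 by 3.76, LOC4342832 by 3.05, LOC4350847 by 3.04 and LOC4348295 by 2.96. *CIPK27* was the named gene among them. It gave 126 and 102 in ‘CH8/9’, against 19.1 and 18.8 in ‘CH7/8’, a difference of 2.58 (adjusted p = 0.0161 from limma). LOC9271826 was lower in ‘CH8/9’ by -3.29 and LOC4331350 by -2.65. In the stretch of chromosome 11, 22 of the 22 called genes had the same direction between these hybrids, beside 68 of the 88 elsewhere.

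**Figure D5:**
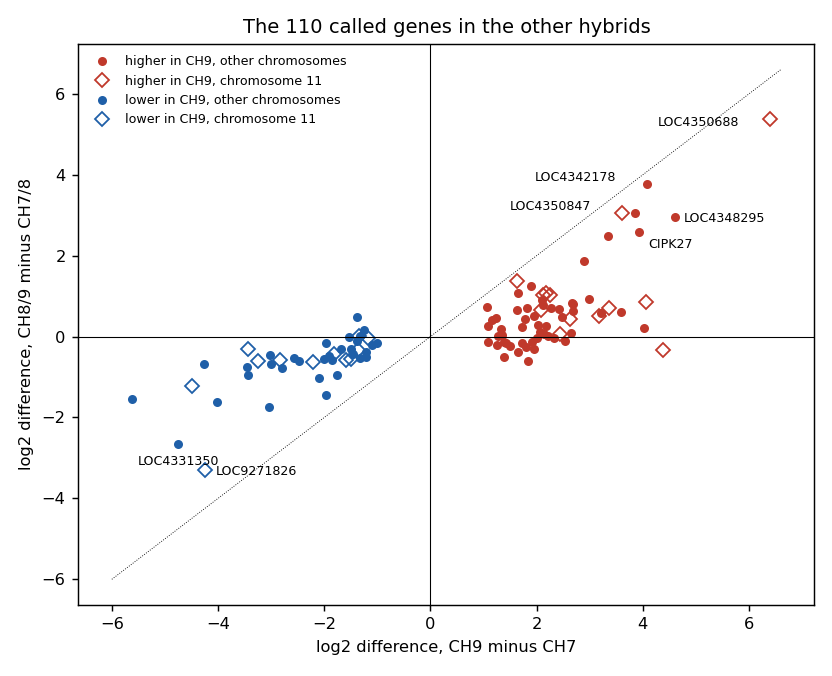
Log2 difference of ‘CH8/9’ minus ‘CH7/8’ (vertical axis) against that of ‘CH9’ minus ‘CH7’ (horizontal axis) for the 110 called genes, with diamonds for chromosome 11 and a dotted line of equality. LOC4350688, at 6.39 and 5.39, and LOC9271826, at -4.25 and -3.29, keep most of the parental gap, while many genes higher in ‘CH9’ lie near 0 on the vertical axis.

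None of the 5 called wall and kinesin genes passed the test between these hybrids. *CESA8* gave 151 and 173 in ‘CH8/9’, against 112 and 170 in ‘CH7/8’, a difference of 0.23 (SE 0.21). *CESA1* was at 0.05, *GLU2* at -0.14, *cellulase* at -0.16 and *KIN14H* at -0.25, with unadjusted p from 0.193 to 0.815. *CESA4* was lower in ‘CH8/9’, at 139 and 63.4, against 393 and 163 in ‘CH7/8’. Of the 40 cellulose and mannan genes 19 were higher in ‘CH8/9’ than in ‘CH7/8’, with a median of -0.02. Of the other named genes higher in ‘CH9’, beside *CIPK27* above, *RS2* was at 0.91, *KRP5* at 0.71, *CIPK33* at 0.70, *OsPT11* at 0.51 and *CCD8A* at -0.30. Of those lower in ‘CH9’, *GATB* was at -0.59, *CpSecY* at -0.51, *HAP2A* at -0.31 and *DMC1* at -0.16. The unadjusted p from limma was under 0.05 for *RS2*, *KRP5*, *OsPT11*, *GATB* and *CpSecY*, and none of these was called.

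‘CH8’, the third parent, was nearer to ‘CH9’ than to ‘CH7’ in 53 of the 66 genes higher and in 29 of the 44 lower in ‘CH9’, on the log2 scale. This was not counted over all genes, so these counts describe the called genes, which were chosen for their gap between ‘CH9’ and ‘CH7’. *CESA8* was at 204 and 217 in ‘CH8’ and *KIN14H* at 43.8 and 33.6, above ‘CH9’ in both arrays. *CIPK33* was at 159 and 259 in ‘CH8’, as bright as in ‘CH9’, whereas *CIPK27* was at 19.3 and 29.9, as dim as in ‘CH7’. *OsPT11* and *CCD8A* were also near ‘CH7’, at 5.95 and 6.49 and at 22.1 and 13.7 in ‘CH8’.

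The study listed genes of the ‘CH7/8’ hybrid, a different comparison, and 2 of the entries could be matched to measured genes through an accession. LOC9272107 was at 204 and 199 in ‘CH9’, against 176 and 1104 in ‘CH7’, where the replicates lay far apart. LOC4351689 was at 6.92 and 19.5 in ‘CH9’, against 5.02 and 8.95 in ‘CH7’. Neither was called between ‘CH9’ and ‘CH7’ (adjusted p of 0.652 and 0.798 from limma).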

How the data were processed

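The 12 arrays were deposited as 1 table of linear intensity values, and these were taken to log2 with no pseudocount and no further scaling. Per the methods, the authors subtracted background and normalized by quantiles with RMA, but MAS5 is the tool in the submitters' notes. Its version, and which algorithm made the table, are not given in the sources used here. Groups came from the line labels. A mean per line was fitted over the 12 arrays with limma 3.58.1 in R 4.3.3 (lmFit, eBayes), so that all lines shared an estimate of the spread, with Benjamini-Hochberg adjustment over 54922 probe sets. The same fit gave ‘CH8/9’ minus ‘CH7/8’, and it was tested on simulated data. The precision is known only from the number of arrays and the spread between replicate arrays.

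Gene names are those of the platform annotation, updated through RefSeq's table for assembly ASM3414082v1, which matched 24079 identifiers and gave gene order. It need not be the build behind the array, so no coordinates are given. Of 54922 probe sets, 95 with several genes and 30747 with none stayed out of the gene counts. A gene with several probe sets was represented by the brightest on average.

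Named genes were the called genes with a name, the 5 largest called differences in each direction with a code alone, up to 6 called members of each list and up to 4 members by smallest p, more for the cellulose list, the trait genes, the genes of windows of 10 neighbours with at least 3 calls, and study entries matched by accession. The 28 lists were symbol patterns. The members, lists and rules were chosen with earlier results of these data known. Called genes named for the hybrids or for adjacency were picked after their values were seen. Alternatives were quantile normalization, median centring, a filter on dim probe sets, pseudocounts of 1 and 16, other fold thresholds, fits on the 4 or 6 arrays of the parents, a mean-dependent spread, array weights, no eBayes, SAM (the methods' test, at a q of 5%), the replicate number as a block, and each array left out. Leaving out the ‘CH7/8’ arrays and fitting parents and hybrids separately were added after seeing the data, as was dropping aquaporin and auxin genes that the immune pattern had caught.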

Additional observations from a re-analysis of the deposited data

Results flagged for a closer look

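Probe sets without a single listed gene carried calls as well, which no gene count includes. limma called 27 of them higher and 69 lower in ‘CH9’ than in ‘CH7’ by the same thresholds, beside 66 higher and 44 lower among genes. The bases differ, with 30747 probe sets of no gene and 95 of several against 23837 genes, so the counts do not compare directly. Their sequences were not used here, and what they measure was not tested.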

How the results depend on the processing

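All 110 called genes kept their direction in every alternative fit that tested them, 95 without dim probe sets. The counts depended on how the spread was estimated and on single arrays. As shares of all genes, beside 0.277% higher and 0.185% lower in the report, the calls higher and lower were 0.109% and 0.0713% with a pseudocount of 16 (26 and 17 genes), 0.91% and 0.529% with array weights (217 and 126), 0.0545% and 0.0378% without eBayes (13 and 9), 2.16% and 1.15% with SAM (514 and 273), and 0.554% and 0.424% without the ‘CH7/8’ arrays (132 and 101). The fit on the 4 arrays of ‘CH9’ and ‘CH7’ called 0.516% higher, and a 3-fold threshold left 0.113% lower. Leaving out 1 array gave 0.0797% to 0.0923% higher (19 to 22 genes) and 0.0503% to 0.0839% lower (12 to 20). In those fits the line with a lone array is assumed to vary like the others. SAM took the median false calls over 6 permutations of the labels, the true order and its reverse among them. The causes were not tested.

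With the replicate number as a block, 43 genes were called higher (0.18%) and 30 lower, and 68 of the 110 stayed called. The deviations of same-numbered replicates correlated at r = 0.05 over probe sets between ‘CH9’ and ‘CH7’ and at -0.33 to 0.20 over the 15 pairs of lines, 2 of them over 0.1, so the numbers were not taken to pair the samples. For the named genes, 2005 values under an alternative kept their side of the threshold, 135 lost a call, 40 gained one and 3 changed sign without a call. *BADH2* was at -0.12 without ‘CH9’ replicate 1, at -0.08 without ‘CH7’ replicate 1 and at most at 0.15 without another array, and LOC9272107 was at 0.19 without ‘CH7’ replicate 2 and at -2.45 without ‘CH7’ replicate 1. The number of arrays, the dim end of the signal and the spread of the other lines' replicates limit what could be detected.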

Other observations

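Hormone and stress genes held no call between ‘CH9’ and ‘CH7’, apart from *CCD8A* above. The lists are given by their counts at an unadjusted p under 0.05, with their shares. Over all genes 5.32% were higher and 7.36% lower at that p, and many of the lists were near these shares. Of 97 abscisic acid and dehydration genes 13 were higher (13.4%) and 8 lower (8.25%) in ‘CH9’, with a median of 0.14. The phosphatase gene *OsPP2C30*, a negative regulator in abscisic acid signalling, gave 106 and 100.4 in ‘CH9’, against 23.1 and 29.7 in ‘CH7’ (1.98, adjusted p = 0.0753 from limma). Of 66 auxin genes 5 were higher (7.58%) and 2 lower (3.03%), and 46 had a higher mean in ‘CH9’ (median 0.22). Of 65 ethylene and jasmonate genes 9 were higher (13.8%) and 2 lower (3.08%), with a median of 0.17. *ACO1*, for an ethylene-forming oxidase, gave 287 and 677 in ‘CH9’, against 40.2 and 65.3 in ‘CH7’. Its difference of 3.10 was not called and had an SE of 0.99 from the pooled spread. The ‘CH8’ arrays at 1370 and 229 and the ‘CH7/8’ arrays at 163 and 1148 added to that spread. Among 41 cytokinin genes 2 were higher (4.88%) and 1 lower (2.44%), with a median of 0.05. Among 38 gibberellin and brassinosteroid genes 3 were higher (7.89%) and 1 lower (2.63%), with a median of -0.00.

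Immune genes, 63 after trimming, were 3 higher (4.76%) and 6 lower (9.52%), with a median of 0.02. The chitinase gene *Cht6* passed the adjusted test at 7.74 and 7.13 in ‘CH9’, against 15.2 and 13.1 in ‘CH7’, but differed by less than 2-fold (-0.93, adjusted p = 0.0473 from limma). None of 22 diterpenoid phytoalexin genes reached an unadjusted p under 0.05 (median -0.05). Among 74 heat shock and chaperone genes 3 were higher (4.05%) and 7 lower (9.46%), with a median of 0.00. Among 49 redox and detoxification genes 2 were higher (4.08%) and 5 lower (10.2%), with a median of 0.03.

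Carbohydrate genes were 7 higher (8.43%) and 0 lower of 83 in the list of sucrose, trehalose and starch (median 0.03). The sucrose synthase gene *OsSUS1* gave 189 and 186 in ‘CH9’, against 47.0 and 30.0 in ‘CH7’ (2.32, adjusted p = 0.106 from limma). *OsTPP7*, for a trehalose phosphate phosphatase, gave 461 and 286 in ‘CH9’, against 102 and 103 in ‘CH7’ (1.82, adjusted p = 0.0837). Of 26 photosynthesis and chlorophyll genes 0 were higher and 1 lower (3.85%), with a median of -0.09. Of 64 iron and metal genes 2 were higher (3.12%) and 4 lower (6.25%), with a median of -0.04. Of 30 genes listed as aquaporins 6 were higher (20%) and 3 lower (10%), with a median of 0.05. Of 185 genes listed as transcription factors 18 were higher (9.73%) and 12 lower (6.49%), with a median of 0.08. *HAP2A* was the 1 called, and the list took it by its symbol alone, so its place there was not checked. Of 45 MADS and flowering time genes 5 were higher (11.1%) and 3 lower (6.67%), with a median of 0.01. *GRF8*, a growth-regulating factor gene in the stretch of chromosome 11, gave 41.2 and 37.4 in ‘CH9’, against 8.14 and 6.85 in ‘CH7’ (2.39, adjusted p = 0.117).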
